A study of Mus musculus with 2 samples.

Results

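The Maf, Bach and Nrf family factors are basic leucine zipper transcription factors that share partners and DNA sites. Here 8 of their genes were followed among the 32285 genes of a single-cell RNA-sequencing study of mouse liver endothelium: the large Maf gene Maf, the small Maf genes Maff, Mafg and Mafk, and Bach1, Bach2, Nfe2l1 and Nfe2l2. The genes were chosen by name, and each had 1 row in the gene list of both libraries. The question was how levels of family members that might stand in for Maf compared, in liver sinusoidal endothelial cells (LSECs) and in macrophages, between mice with and without endothelial Maf. There was 1 library per genotype, which gives levels and their counting error but no test between genotypes.

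Knockout mice carried the Clec4g-iCre transgene (tg/wt) together with Maf fl/fl and are called Maf LSEC-KO. Controls were littermates without the transgene (Clec4g-iCre wt/wt) that were Maf fl/fl or Maf fl/wt, so the control pool, labelled WT, had floxed Maf alleles too. The Clec4g promoter is active in sinusoidal endothelium and was not meant to act in macrophages. For each genotype, liver cells of 3 mice were pooled after collagenase digestion, enriched on a Nycodenz gradient and selected with anti-CD146 beads before droplet sequencing. Female and male mice were used in the study, and the age and sex of the animals in these pools were not given in the sources used here.

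In these proteins the leucine zipper sets the dimer partner and the basic region binds DNA. Maf (c-Maf) has its own activation domain and binds Maf recognition elements, also as a homodimer. The small Mafs have no activation domain: their homodimers repress, their dimers with Nrf1 (Nfe2l1) or Nrf2 (Nfe2l2) activate antioxidant response elements, and their dimers with Bach1 or Bach2 repress the same elements. Bach1 is released from DNA by heme, Nrf2 is held down by Keap1, and Nrf1 is processed at the endoplasmic reticulum and drives proteasome genes. In macrophages, Maf is a regulator of the differentiated state.

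The control library held 5664 barcodes with 47681895 unique molecular identifiers (UMIs, 1 per captured RNA molecule) and the knockout library 7091 barcodes with 89872764 UMIs. The libraries had 10 barcodes in common, 4 of them among LSECs. LSECs were cells of endothelial clusters without a UMI of Vwf, 4101 in control and 3163 in knockout, and macrophage-like cells numbered 219 and 390. Knockout LSECs were deeper, with a median of 14030 UMIs against 8395, and 21.4% against 1.93% of them had UMIs of at least 3 of 8 cell cycle genes. The defining LSEC gene Clec4g was at 3017 and 1534 CPM in control and knockout LSECs. RNA of LSECs was present in other cells: the summed level of 7 LSEC genes in macrophage-like and B cell-like cells was 29.5% and 66.5% of that in LSECs in the control library, and 13.3% and 26.9% in the knockout library. Levels are given as CPM, the UMIs of a gene summed over the cells of a class and scaled to 1000000 UMIs of genes other than mitochondrial and ribosomal protein genes. A molecule is counted once at its 3′ end, so no length correction applies. Ranges in parentheses are exact 95% intervals, which cover counting error only and not the variation between mice.

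Maf was by far the most abundant member in control LSECs, and it was 28.2-fold lower in knockout LSECs. What remained was uneven: 4495 of the 4833 Maf UMIs of knockout LSECs lay in 329 of 3163 cells, those with 2 or more. Without these cells the log2 ratio was -8.50, a value set by choosing knockout cells by Maf itself while all control LSECs were kept. The gene lies on mm10 chr8:115682942-115707794, minus strand. It was at 3471 CPM (3451 to 3491) in control against 123 CPM (119.5 to 126) in knockout, a log2 ratio of -4.82 (-4.86 to -4.78). This checks the label, with the limit that the position of the floxed segment relative to the 3′ tags was not given, so that remaining tags may stem from recombined alleles. A Maf UMI was found in 99.4% of control LSECs, with a median of 22 per cell, whereas 78.9% of knockout LSECs had none. The antisense gene Gm15655 overlaps Maf by 2156 bases and was at 14.9 CPM in control LSECs and at 0.483 CPM in knockout LSECs.

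**Figure D1:**
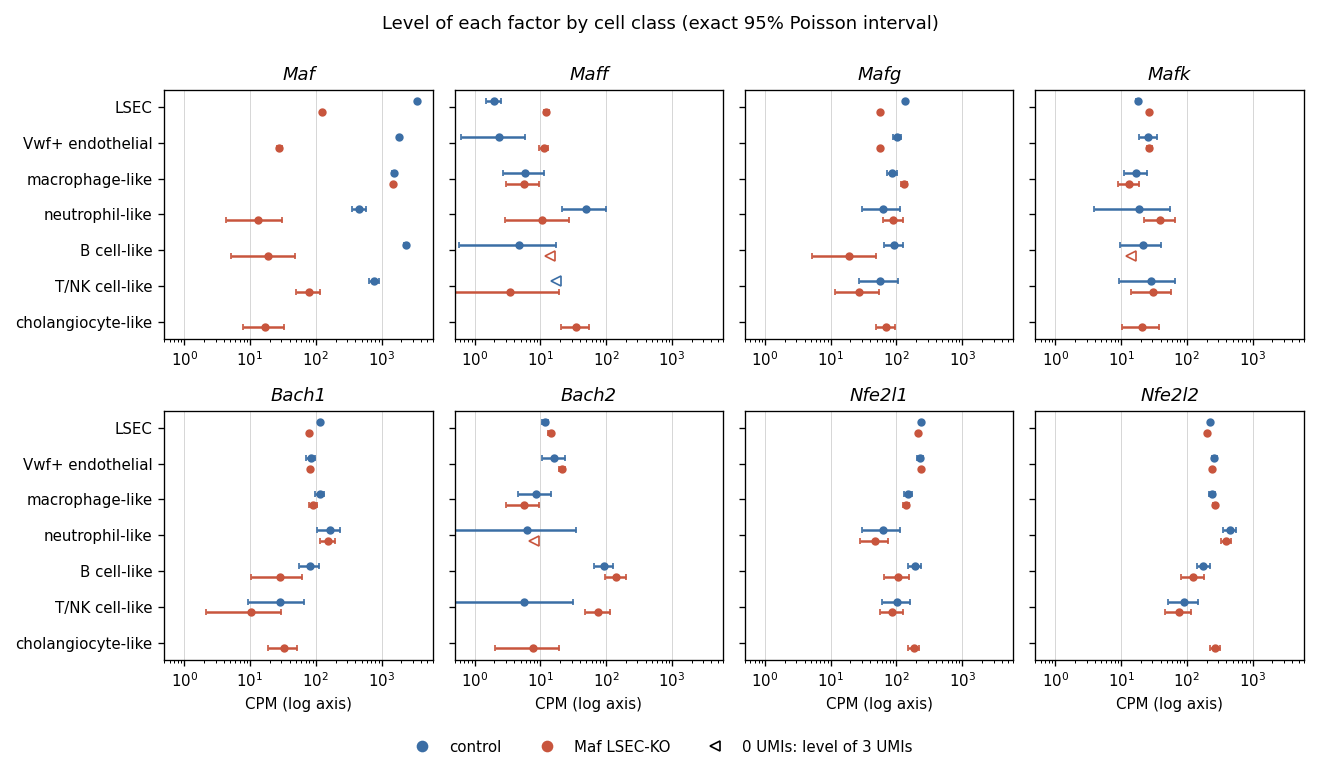
Level of each of the 8 factors (CPM, log axis) by cell class in the control and Maf LSEC-KO libraries; points are sums over the cells of a class, bars are exact 95% Poisson intervals, and a class without UMIs is drawn at the level of 3 UMIs. Maf was at 3471 CPM in control LSECs and 123 CPM in knockout LSECs, macrophage-like cells had 1522 and 1508 CPM of Maf, of which 67.2% of the control UMIs were expected from LSEC RNA, and Bach2 was highest in B cell-like cells.

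The small Maf genes went in different directions: Mafg was lower, Maff higher and Mafk slightly higher in knockout LSECs. Mafg (chr11:120625117-120633600, minus strand), the most abundant small Maf, was at 134 CPM (130.0 to 138) in control against 56.8 CPM (54.4 to 59.2) in knockout, which is 2.36-fold lower (log2 ratio -1.24, -1.31 to -1.16). Maff (chr15:79346621-79359076, plus strand), known as a stress-inducible small Maf, was at 1.95 CPM (1.501 to 2.49) in control, or 64 UMIs, and at 12.3 CPM (11.2 to 13.4) in knockout, or 483 UMIs. This is 6.30-fold higher, from a low level (log2 ratio 2.66, 2.28 to 3.06). Mafk (chr5:139791513-139802653, plus strand) was at 18.1 CPM (16.7 to 19.6) and 26.9 CPM (25.3 to 28.5), a log2 ratio of 0.57 (0.42 to 0.72).

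Maff and Mafk together did not make up for the lower Mafg. The 3 genes summed to 154 CPM (149.8 to 158) in control LSECs against 95.9 CPM (92.9 to 99.0) in knockout LSECs. Mafg was 87.0% of the small Maf UMIs in control and 59.2% in knockout, while Mafk was 11.7% and 28.0%. Maff was 1.27% and 12.8%.

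Because the libraries differed in depth, each cell was also thinned once, at random, to 2700 UMIs, without the 406 control and 182 knockout LSECs that were shallower. Unlike CPM, this depth includes mitochondrial and ribosomal protein genes. A Mafg UMI was then found in 26.5% (25.1 to 27.9) of control LSECs against 11.6% (10.5 to 12.8) of knockout LSECs, and before thinning in 55.8% and 41.95%. Thinned B cell-like cells were taken as the background from RNA of other cells. Such RNA was uneven among them: before thinning, 15 of 47 control B cell-like cells had 20 or more Maf UMIs and 19 had none. Mafg was found in 10.9% (3.62 to 23.6) of the control cells and 2.56% (0.0649 to 13.5) of the 39 knockout cells, at median depths of 7540 and 5977 UMIs. The Mafg share of LSECs was above the interval of this background in control and within it in knockout. A Maff UMI was found in 0.379% (0.207 to 0.635) of thinned control LSECs and 2.21% (1.72 to 2.81) of thinned knockout LSECs, and before thinning in 1.27% and 11.6%. For Mafk the thinned shares were 3.87% (3.27 to 4.54) and 6.41% (5.55 to 7.35), after 12.3% and 25.2%. In thinned B cell-like cells Maff and Mafk were each found in 2.17% (0.0550 to 11.5) of the 46 control cells and in none of the 39 knockout cells, and this control interval includes the LSEC shares of both genes. At equal depth Mafg was thus detected in fewer knockout than control LSECs, and Maff in more of them. The background intervals rest on 46 and 39 cells and are wide, so lying within them does not place a share at background.

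The 3 small Maf genes and Nfe2l2 carried the core of the antioxidant response element, the site bound by the family itself, in the 250 bases before a RefSeq transcription start. These 4 stretches are printed from RefSeq (GRCm38.p6), 5′ to 3′ on the strand of the gene, with the core in capitals. The core was searched as TGACNNNGC on both strands, and in Mafg and Mafk it lies on the opposite strand. The stretches are chr11:120633548-120633797 (minus) for Mafg, chr15:79346371-79346620 (plus) for Maff, chr5:139791286-139791535 (plus) for Mafk and chr2:75704664-75704913 (minus) for Nfe2l2.
Mafg: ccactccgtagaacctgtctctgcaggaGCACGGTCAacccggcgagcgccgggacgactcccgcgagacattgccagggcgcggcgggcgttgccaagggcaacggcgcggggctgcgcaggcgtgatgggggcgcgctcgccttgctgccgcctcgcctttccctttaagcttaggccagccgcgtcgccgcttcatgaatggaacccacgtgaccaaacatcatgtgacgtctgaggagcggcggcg
Maff: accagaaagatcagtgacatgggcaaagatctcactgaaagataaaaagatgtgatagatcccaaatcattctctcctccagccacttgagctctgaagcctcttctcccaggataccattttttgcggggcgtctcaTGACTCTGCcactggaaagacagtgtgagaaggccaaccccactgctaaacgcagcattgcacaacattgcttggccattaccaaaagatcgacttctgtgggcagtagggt
Mafk: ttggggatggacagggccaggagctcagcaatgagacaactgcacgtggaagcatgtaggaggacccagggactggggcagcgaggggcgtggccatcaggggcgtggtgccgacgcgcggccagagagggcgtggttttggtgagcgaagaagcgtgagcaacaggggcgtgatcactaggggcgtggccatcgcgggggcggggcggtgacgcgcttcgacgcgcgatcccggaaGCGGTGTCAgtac
Nfe2l2: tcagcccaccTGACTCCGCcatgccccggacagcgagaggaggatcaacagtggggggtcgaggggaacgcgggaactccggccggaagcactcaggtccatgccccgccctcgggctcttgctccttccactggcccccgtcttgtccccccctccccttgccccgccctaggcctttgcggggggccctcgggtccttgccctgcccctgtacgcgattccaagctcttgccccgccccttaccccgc
The core lay 222 to 214 bases before the start in Mafg, 112 to 104 in Maff, 13 to 5 in Mafk and 240 to 232 in Nfe2l2. Among the 7 members listed in RefSeq's promoters, 4 had it before at least 1 start, as did 11.5% of the 27025 genes listed and 10.2% of the 32851 promoters. The Maf recognition core TGCTGAC was found before a start of Nfe2l1 and of 4.31% of all genes. The genes with the antioxidant core had no common direction in knockout LSECs, as Mafg was lower, Maff higher and Nfe2l2 close to control. These matches describe letters in the windows and are not measured binding.

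The Bach genes stayed short of 2-fold. Bach1 (chr16:87698945-87733346, plus strand), the heme-regulated repressor, was at 117 CPM (113 to 121) in control LSECs and 80.0 CPM (77.2 to 82.9) in knockout LSECs, a log2 ratio of -0.55 (-0.62 to -0.48). Bach1 was detected in 22.4% (21.1 to 23.8) of thinned control LSECs against 14.4% (13.1 to 15.7) of thinned knockout LSECs. Bach2 (chr4:32238804-32586108, plus strand), known for its role in lymphocytes, was at 11.8 CPM (10.7 to 13.1) and 14.4 CPM (13.2 to 15.6), a log2 ratio of 0.28 (0.09 to 0.47), and its thinned shares of 2.71% (2.21 to 3.28) and 2.52% (1.98 to 3.14) overlapped. The lower Bach1 was therefore seen in CPM and in shares of cells, and the higher Bach2 in CPM alone. These measures have different totals, since thinning counted UMIs of all genes. With UMIs of all genes as the total, the log2 ratio of Bach2 was 0.09.

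The Nrf genes were a little lower in knockout LSECs. Nfe2l1 (chr11:96817414-96829968, minus strand) was at 232 CPM (227 to 237) in control LSECs and 211 CPM (206 to 215) in knockout LSECs, a log2 ratio of -0.14 (-0.18 to -0.09). Nfe2l2 (chr2:75675513-75704641, minus strand) was at 224 CPM (219 to 229.6) and 206 CPM (201 to 210.2), a log2 ratio of -0.13 (-0.17 to -0.08). Intervals of these 2 genes overlapped within each library, so their order is not resolved. In knockout LSECs they led the family, with 28.9% and 28.2% of its UMIs, where Maf was 16.8%, after 82.4% in control. Both differences are smaller than the effect of scaling: with UMIs of all genes as the total, every log2 ratio in LSECs was lower by 0.19, and the median of all genes was -0.06 in place of 0.13.

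Without Maf, the other 7 members summed to 739.5 CPM in control and 607 CPM in knockout LSECs, so the level lost with Maf was not matched by RNA of the other members. Among genes at 20 CPM or more in either library, 13.8% of 7586 were past 2-fold. At that limit 6 members remained, of which Maf and Mafg were at least 2-fold lower and none was higher. Over all genes at the limit 697 were higher and 347 lower by 2-fold, a split that became 426 and 469 with UMIs of all genes as the total, and the members' calls were the same. Among genes with at least 10 UMIs, 24.6% of 15390 were past 2-fold, and of the 8 members Maf and Mafg were lower and Maff was higher. The members other than the deleted gene were therefore past 2-fold about as often as genes in general.

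**Figure D2:**
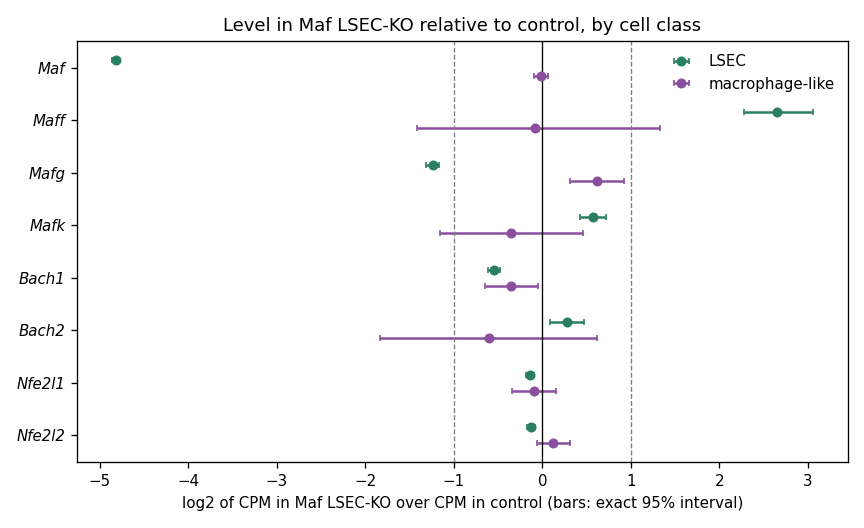
Log2 of the knockout CPM over the control CPM for the 8 factors in LSECs and macrophage-like cells; bars are exact 95% intervals for counting error and dashed lines mark 2-fold. In LSECs Mafg was at -1.24 and Maff at 2.66, and in macrophage-like cells Mafg was at 0.62.

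A further 4 genes of the family were low in LSECs, given for control and knockout in turn. The large Mafs Mafa and Nrl were at 0.700 and 0.432 CPM and at 1.58 and 0.738 CPM. Nfe2 and Nfe2l3, further Nrf-type partners of small Mafs, were at 0.122 and 0.254 CPM and at 0.0914 and 0.382 CPM. In knockout LSECs each of these 4 was below the level of Maff, the lowest small Maf.

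Endothelial cells with a UMI of Vwf, a gene of larger vessels, had lower Mafg and higher Maff in the knockout library, in 161 control and 1162 knockout cells. Mafg was at 102 and 56.9 CPM in control and knockout (log2 ratio -0.84, -1.07 to -0.60) and Maff at 2.32 and 11.2 CPM (2.28, 0.90 to 4.17), the latter on 4 control UMIs. Bach1, at 83.4 and 83.2 CPM, and Mafk, at 26.1 and 26.9 CPM, had intervals of the log2 ratio that included 0 (-0.25 to 0.25 and -0.40 to 0.52). Maf was at 1828 and 28.0 CPM there. The class held different cells in the 2 libraries. A Vwf UMI was found in 12.1% and 27.5% of the cells of control clusters 4 and 7 and in at most 1.46% of the other control endothelial clusters, whereas it was found in 69.9% and 83.8% of knockout clusters 6 and 8 and in 15.9% to 25.3% of knockout clusters 1, 2, 3 and 5. The summed level of the 7 LSEC genes in it was 72.6% of that in LSECs in control and 97.9% in knockout, so the comparison is not between matched cells of larger vessels.

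A minority of knockout LSECs kept Maf, and these cells had more Mafg than the others of the same library. Mafg was at 51.5 CPM (49.0 to 54.2) in the 2496 cells with 0 Maf UMIs and at 52.9 CPM (46.9 to 59.5) in the 338 cells with 1. In the 329 cells with 2 or more Maf UMIs it was at 99.6 CPM (90.2 to 109.8), and its log2 ratio to cells without Maf was 0.95 (0.79 to 1.11). In the 200 cells with 5 or more, which belong to the last group, it was at 137 CPM (121 to 154), and the corresponding ratio was 1.41 (1.22 to 1.60). Against all control LSECs, the log2 ratio of these 200 cells was 0.03 (-0.15 to 0.21), whereas that of cells without Maf was -1.38. Mafg in cells with 5 or more Maf UMIs thus lay near the control level, and cells with 1 Maf UMI were within counting error of cells with none.

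Bach1 had the same order, at 77.3 CPM (74.2 to 80.6) with 0, 96.7 CPM (87.4 to 107) with 2 or more and 113 CPM (98.4 to 128) with 5 or more Maf UMIs. Maff had the opposite order, at 12.6 CPM (11.3 to 13.9), 9.99 CPM (7.17 to 13.6) and 6.88 CPM (3.76 to 11.5), with a log2 ratio of the last group to the first of -0.87 (-1.75 to -0.10). Even in the cells with 5 or more Maf UMIs, the interval of Maff lay above that of control LSECs. Mafk varied little, at 26.3 CPM (24.5 to 28.2) with 0 and 31.0 CPM (23.8 to 39.6) with 5 or more Maf UMIs, above control in both. Nfe2l1 was at 208 CPM and 257 CPM and Nfe2l2 at 201 CPM and 228 CPM in these groups. Bach2 was at 14.4 CPM (13.1 to 15.9) and 17.2 CPM (12.0 to 23.9), with overlapping intervals. Of the 7 members other than Maf, 0 differed by 2-fold between cells with 2 or more and with 0 Maf UMIs, beside 10.6% of 14119 genes with at least 10 UMIs, and 1 (Mafg) with 5 or more, beside 21.8% of 14021 genes. The groups were formed by Maf itself and their cells are not replicates. Median depth was 13928.5 UMIs with 0, 18057.5 with 1 and 9924 with 5 or more Maf UMIs. Macrophage RNA was expected to give 0.710% of the Maf and 0.919% of the Mafg UMIs of cells with 5 or more.

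**Figure D3:**
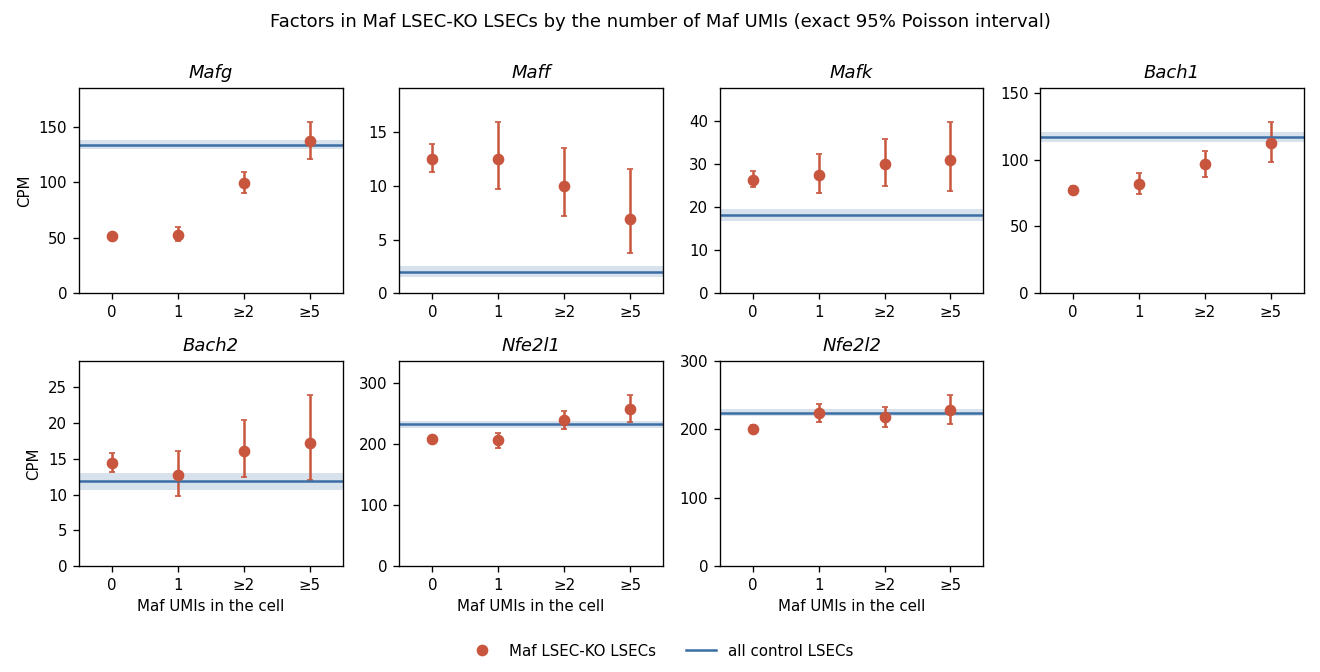
Level (CPM, axes from 0) of the other 7 factors in knockout LSECs with 0, 1, at least 2 and at least 5 Maf UMIs (points with exact 95% Poisson intervals; the last group is part of the one before it), with all control LSECs as a line and band. Mafg was at 51.5 CPM with 0 and 137 CPM with 5 or more Maf UMIs, next to 134 CPM in control, whereas Mafk was above its control level in every group.

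Clusters of the knockout library held the same contrast. Cluster 7 (211 cells, led by Dnase1l3 and Maf) had Maf at 2318 CPM, Mafg at 153 CPM and Maff at 3.96 CPM. In the other 7 endothelial clusters Maf ranged from 14.0 to 80.0 CPM, Mafg from 41.4 to 74.5 CPM and Maff from 5.80 to 15.7 CPM. The 80.0 CPM of Maf was that of cluster 12 (73 cells, 34 Maf UMIs), led by Ppbp, Nrgn and Fabp1, and the next value was 29.0 CPM in cluster 1. Maf was among the variable genes used to form the clusters of this library, and the other 7 members were not. Mafg was lowest in cluster 5, led by mitotic genes, and Nfe2l2 was highest, at 396 CPM, in cluster 8, led by Rspo3 and other genes of central veins. In control clusters Mafg ranged from 90.7 to 226 CPM, with the highest value in cluster 5, which had 11.1% mitochondrial UMIs. Without the clusters that had a median under 6000 UMIs, the log2 ratio of Mafg in LSECs was -1.23.

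Between the outer quartiles of control LSECs along the sinusoid 0 of 8 members differed by 2-fold, beside 9.6% of 12620 genes with at least 10 UMIs. Control LSECs were ordered by the share of pericentral genes among the UMIs of 6 pericentral and 6 periportal genes and divided into quartiles. The periportal quartile was shallower, with a median of 6018 UMIs, against 9393.5 and 9223.5 in the next quartiles and 8632 in the pericentral quartile. Mafg was at 116 CPM (108 to 124) in the periportal quartile and 155 CPM (147 to 164) in the pericentral quartile, with 122 CPM and 138 CPM between them. Maf was likewise higher on the pericentral side of this order, at 3073 CPM (3031 to 3117) and 3643 CPM (3602 to 3686), with 3514 and 3556 CPM between them. Clusters gave another order: control cluster 4, led by Rspo3 and with some Vwf-positive cells, had Maf at 2956 CPM. Clusters 1 and 2 had 3583 and 3859 CPM, and all control endothelial clusters ranged from 1836 to 4136 CPM. The paper describes Maf as lower in pericentral LSECs, and this disagreement was not resolved here. Bach2 was at 8.59 CPM (6.47 to 11.2) and 16.7 CPM (14.0 to 19.8), the widest gap among the members by log2 ratio (0.96, 0.49 to 1.44). Mafk was higher on the periportal side, at 23.1 CPM (19.5 to 27.2) against 13.2 CPM (10.8 to 15.9). Maff, on 7 to 25 UMIs per quartile, had no steady order: it was at 1.41 and 2.36 CPM in the first quartiles from the periportal side, at 2.75 CPM (1.78 to 4.06) in the next and at 0.877 CPM (0.353 to 1.81) in the pericentral quartile, so that these last quartiles differed by more than 2-fold with intervals that overlapped slightly. Nfe2l1 was at 245 CPM and 216 CPM, Nfe2l2 at 205 CPM and 242 CPM, and Bach1 at 106 CPM and 121 CPM. Of 4060 cells with a value, 258 lay within 0.02 of the lowest boundary, so the quartiles are ranges and not cell types.

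In macrophage-like cells, which carried the Kupffer cell gene Clec4f at 3242 and 3987 CPM in control and knockout, Maf did not differ beyond counting error in the plain sums, while Mafg was higher in the knockout library. Maf was at 1522 CPM (1460 to 1585) in control against 1508 CPM (1458 to 1559) in knockout, a log2 ratio of -0.01 (-0.09 to 0.06). Mafg was at 85.1 CPM (71.0 to 101) and 131 CPM (116 to 146), a log2 ratio of 0.62 (0.32 to 0.93), of opposite sign to LSECs. Markers of macrophages were higher in the knockout library too: the summed level of 6 of them was 16020 and 22745 CPM in control and knockout, and C1qa was at 3768 and 5833 CPM. Their part in the ratio of Mafg was not tested. Of the 8 members 0 were past 2-fold, beside 14.9% of 11477 genes with at least 10 UMIs and 9.67% of 7229 genes at 20 CPM or more.

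Bach1 was at 115 and 90.5 CPM in control and knockout macrophage-like cells, a log2 ratio of -0.35 (-0.65 to -0.05). Nfe2l2 was at 245 and 267 CPM, a log2 ratio of 0.12 (-0.06 to 0.31), and Nfe2l1 at 149.7 and 140.2 CPM, a log2 ratio of -0.09 (-0.34 to 0.16). Intervals of both Nrf genes included 0. Mafk was at 17.2 and 13.4 CPM (-1.15 to 0.46 on the log2 scale), Maff at 5.94 and 5.63 CPM and Bach2 at 8.58 and 5.63 CPM. Each rested on 31 or fewer UMIs per library, so that even differences past 2-fold could be missed at this depth.

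The amount of LSEC RNA in these cells differed between the libraries. From the 7 LSEC genes, 67.2% of the Maf UMIs and 46.4% of the Mafg UMIs in control macrophage-like cells were expected from LSEC RNA, against 1.08% and 5.78% in the knockout library, where LSECs had little Maf. With the expected part subtracted, Maf was at 499 and 1492 CPM in control and knockout (log2 ratio 1.58) and Mafg at 45.6 and 123 CPM (1.43), while Bach1 was at 80.9 and 79.8 CPM (-0.02). The log2 ratios of Nfe2l1 and Nfe2l2 were then 0.46 and 0.42.

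The same was asked of the 81 control and 231 knockout macrophage-like cells that had UMIs of fewer than 3 of the 7 LSEC genes. In these, Maf was at 855 CPM (769 to 948) in control against 1364 CPM (1289 to 1441) in knockout, a log2 ratio of 0.67 (0.50 to 0.85). Mafg was at 64.3 CPM (42.4 to 93.6) and 116 CPM (94.9 to 139.9), a log2 ratio of 0.85 (0.23 to 1.51). Bach1 was at 119 and 82.2 CPM, a log2 ratio of -0.53 (-1.07 to 0.01), unlike the value near 0 after subtraction. Nfe2l1 and Nfe2l2 had log2 ratios of 0.09 (-0.39 to 0.58) and 0.11 (-0.23 to 0.46). Among macrophage genes, Clec4f, C1qa and Vsig4 had log2 ratios of -0.12, 0.30 and 0.12 in those cells. Mafg was thus higher in the knockout library by the plain sums and by both ways of setting LSEC RNA aside, and Maf by the latter only.

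**Figure D4:**
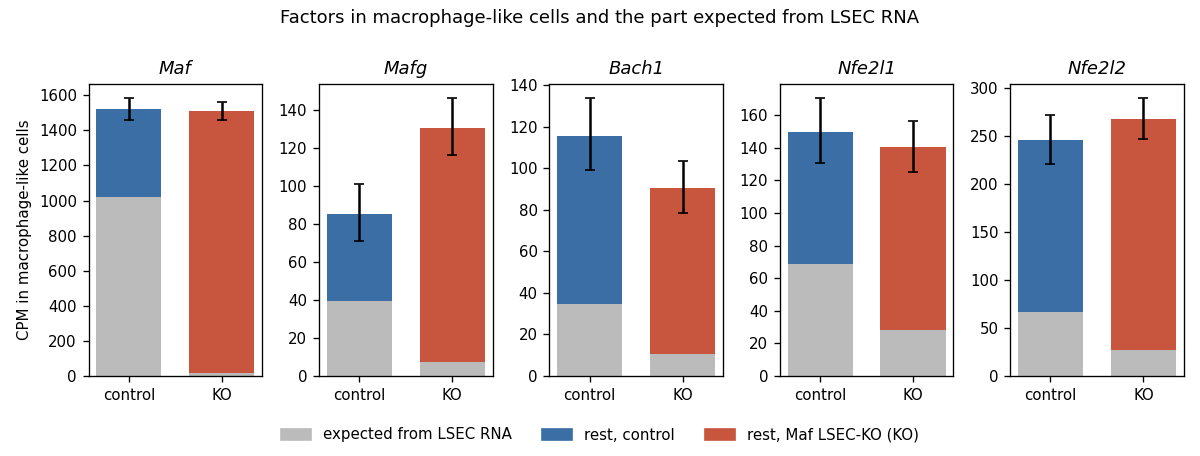
CPM (axes from 0) in macrophage-like cells of the control and Maf LSEC-KO (KO) libraries for Maf, Mafg, Bach1, Nfe2l1 and Nfe2l2; grey is the part expected from LSEC RNA by 7 LSEC genes, colour the rest, and bars are exact 95% Poisson intervals of the total. The grey part was 67.2% of the Maf UMIs and 46.4% of the Mafg UMIs in control cells.

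The remaining classes differed in the members they expressed most. Bach2 was highest in B cell-like cells, at 92.9 CPM (66.0 to 127) in control against 142 CPM (95.9 to 203) in knockout, and in T/NK cell-like cells it had 1 UMI in 29 control cells and 22 UMIs in 60 knockout cells, or 75.1 CPM (47.1 to 114). The knockout intervals of these classes overlap. Nfe2l2 was highest in neutrophil-like cells, at 449 CPM (351 to 565) and 394 CPM (334 to 462), above the intervals of LSECs and macrophage-like cells. Bach1 was also highest there among the named classes, at 162 CPM (106 to 237) and 152 CPM (116 to 197), and in control this interval overlapped those of LSECs and macrophage-like cells. Neutrophil-like cells held Nfe2, the small Maf partner of blood cells, at 112 CPM and 134 CPM. Nfe2l1 was highest in endothelium, and its LSEC intervals lay above those of macrophage-like cells in both libraries. Maff was at 49.8 CPM (21.5 to 98.2) in control neutrophil-like cells and 34.4 CPM (20.4 to 54.3) in the 37 cholangiocyte-like cells of the knockout library, on 8 and 18 UMIs, but at 10.5 CPM (2.86 to 26.9) in knockout neutrophil-like cells, on 4 UMIs and near its level in knockout LSECs. Maf in control B cell-like cells was at 2324 CPM, of which 99.4% were expected from LSEC RNA, and it was at 18.95 CPM in knockout B cell-like cells.

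Several AP-1 factors, which can pair with Maf proteins, were higher in knockout LSECs. Of 12 AP-1 genes 8 were at 20 CPM or more in LSECs and 6 of these were at least 2-fold higher, with a median log2 ratio of 1.51, beside 9.19% of all genes and a median of 0.13. One of the 6, Atf3, reached the limit in the knockout library only, and 5 of the other 7 were at least 2-fold higher. Atf3 was at 4.93 and 36.1 CPM in control and knockout (log2 ratio 2.87, 2.64 to 3.11) and Fosb at 57.3 and 228 CPM (1.99). Junb was at 148 and 444 CPM (1.58), Jun at 385 and 1111 CPM (1.53) and Jund at 385 and 881 CPM (1.19). Fosl2, at 41.9 and 66.2 CPM (0.66), and Atf2, at 63.3 and 54.2 CPM (-0.22), did not reach 2-fold. In macrophage-like cells 0 of 9 AP-1 genes at the limit were higher and 2 were lower by 2-fold, beside 2.99% and 6.68% of all 7229 genes. With so few genes and so low a share, a count of 0 higher says little.

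Genes that respond to tissue dissociation were also higher in knockout LSECs. Of 8 immediate early and heat shock genes 7 were at the limit in LSECs and 6 were at least 2-fold higher, beside 9.19% of all genes. The median log2 ratio of the list was 1.57. In macrophage-like cells 0 of 8 were higher and 1 was lower, beside 2.99% and 6.68% of all genes. The lower gene, Nr4a1, was at the limit in the control library only. The summed level of the immediate early and heat shock genes in endothelial clusters ranged from 296 to 965 CPM in control and from 1096 to 2708 CPM in knockout. In knockout LSECs with 0 and with 5 or more Maf UMIs, Jun was at 1132 CPM and 519 CPM and Atf3 at 37.2 CPM and 13.3 CPM, the order also seen for Maff. Among the endothelial clusters of the knockout library, cluster 1 had both the highest sum of these genes, 2708 CPM, and the highest Maff, 15.7 CPM. Cluster 7 had both the lowest sum, 1096 CPM, and the lowest Maff, 3.96 CPM. Other clusters were in a different order. Clusters 6 and 8, with sums of 1870 and 2053 CPM, had Maff at 5.80 and 7.37 CPM, and cluster 5, with a sum of 1108 CPM, had it at 13.6 CPM. The part of handling in these levels was not tested.

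Regulators of Nrf and Bach proteins differed little in LSECs. All 12 were at 20 CPM or more and 0 passed 2-fold, beside 13.8% of all genes. The median log2 ratio was 0.11. Sqstm1, which sequesters Keap1, was at 141 and 100.4 CPM in control and knockout (log2 ratio -0.49). Syvn1, a ubiquitin ligase of the endoplasmic reticulum, was at 27.4 and 21.4 CPM (-0.36) and Ngly1, the glycanase that acts on Nrf1, at 41.3 and 34.5 CPM (-0.26). Rbx1, a subunit of cullin ligases, was at 226 and 317 CPM (0.49). Fbxo22, which takes part in Bach1 turnover, was at 32.0 and 41.7 CPM (0.38), Fbxw7 at 41.0 and 47.2 CPM (0.20), Vcp at 326 and 369.6 CPM (0.18) and Gsk3b at 277 and 232 CPM (-0.25). In macrophage-like cells 0 of 12 passed 2-fold, beside 9.67% of all genes, and the median was 0.34.

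Target genes of the Nrf and Bach factors had no common direction in LSECs. Of 28 antioxidant and iron genes 21 were at the limit, 1 was at least 2-fold higher and 2 were at least 2-fold lower, beside 9.19% and 4.57% of all genes, and their median log2 ratio was 0.24. The iron exporter Slc40a1 was at 284 and 68.4 CPM in control and knockout (log2 ratio -2.05, -2.11 to -1.99) and the biliverdin reductase Blvrb at 138 and 62.05 CPM (-1.16). The ferritin light chain Ftl1 was at 2037 and 1164 CPM (-0.81). Ephx1, an epoxide hydrolase and the gene counted as higher, was at 12.6 and 28.7 CPM (1.19) and so at the limit in the knockout library only, and the pentose phosphate enzymes Tkt and Taldo1 were at 71.0 and 139 CPM (0.96) and 147 and 283 CPM (0.95). The peroxiredoxin Prdx1 was at 837 and 852 CPM (0.03). Like Mafg, Slc40a1 was close to control where Maf was kept, at 53.5 CPM in knockout LSECs with 0 and 298 CPM in those with 5 or more Maf UMIs, and macrophage RNA was expected to give 24.3% and 11.4% of these UMIs.

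In macrophage-like cells more genes of this list were higher than lower by 2-fold in the knockout library. Of 28 genes 24 were at the limit, 4 were at least 2-fold higher and 0 lower, beside 2.99% and 6.68% of all genes, with a median log2 ratio of 0.39 against 0.01. Of the 4, Srxn1 reached the limit in the knockout library only, so that its place in the count follows from its ratio, and 3 were at the limit in both libraries. The 4 genes, named after their values were seen, were led by the heme oxygenase Hmox1, a gene repressed by Bach1, at 381 and 1298 CPM in control and knockout (log2 ratio 1.77, 1.64 to 1.90). The thioredoxin reductase Txnrd1 was at 84.4 and 214 CPM (1.34, 1.06 to 1.63). The sulfiredoxin Srxn1 was at 9.89 and 21.6 CPM (1.13, 0.27 to 2.07) and Gclc, a subunit of the first enzyme of glutathione synthesis, at 29.7 and 64.1 CPM (1.11, 0.62 to 1.62). Among the cells with fewer than 3 LSEC genes the log2 ratios were 1.27 (1.06 to 1.48) for Hmox1, 1.36 (0.85 to 1.89) for Txnrd1, 1.23 (0.36 to 2.21) for Gclc and 1.25 (-0.31 to 3.26) for Srxn1, the last on 4 control UMIs. In LSECs Hmox1 was at 39.9 and 40.8 CPM.

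Proteasome genes, known targets of Nrf1, were a little higher in knockout LSECs as a list, and none passed 2-fold. All 32 were at the limit, where 13.8% of all genes passed 2-fold. The median log2 ratio was 0.51 against 0.13 for all genes. The lowest ratios were those of Psmd3, at 88.0 and 97.7 CPM (0.15), Psmc3, at 150.5 and 169.5 CPM (0.17), and Psmd13, at 77.0 and 97.1 CPM (0.33). The highest were those of Psma5, at 87.4 and 148 CPM (0.76), Psmd8, at 111 and 192 CPM (0.78), and Psmd14, at 53.9 and 94.0 CPM (0.80). The abundant genes Pomp and Psma7 were at 333 and 493 CPM and at 262 and 381 CPM. With UMIs of all genes as the total each of these ratios is lower by 0.19, which places Psmd3 and Psmc3 below 0. In macrophage-like cells the median was -0.08 and 0 of 32 passed 2-fold, beside 9.67% of all genes.

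**Figure D5:**
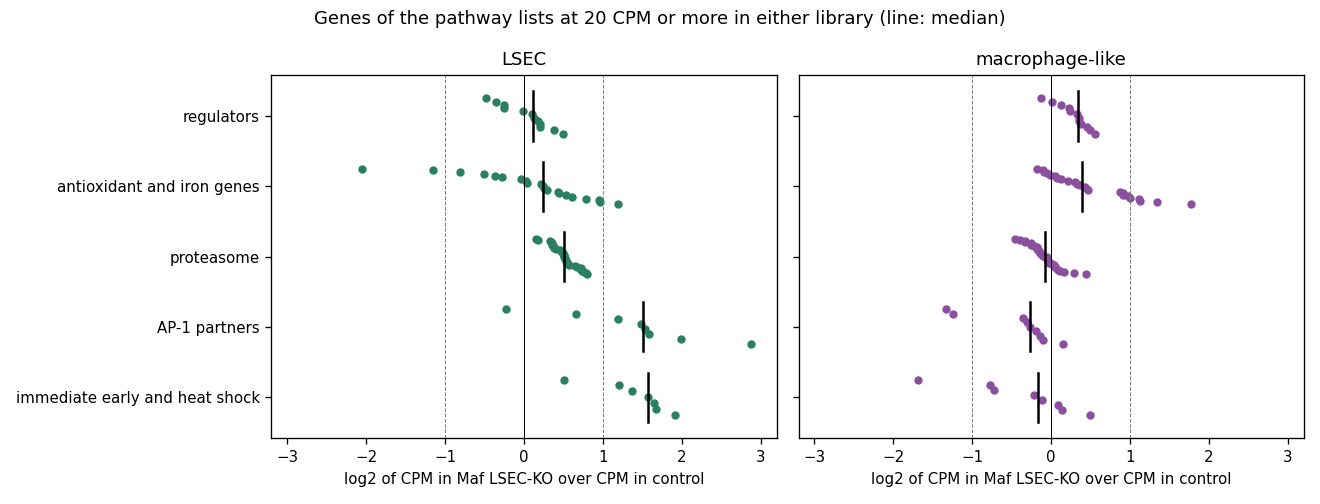
Log2 of the knockout CPM over the control CPM for each gene at 20 CPM or more of 5 lists, in LSECs and macrophage-like cells; points are genes, black lines the median of a list and dashed lines 2-fold. In LSECs the AP-1 median was 1.51 and the proteasome median 0.51, and in macrophage-like cells 4 antioxidant and iron genes were past 2-fold.

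The genes most like each member were sought by Pearson correlation of log2(CPM + 5) over 13 profiles, each a class in a library, among 7521 genes. For Maf they were Dnase1l3 (0.92), Gatm (0.90), and for Mafg Itprid2 (0.89), Slc43a2 (0.88), Kat2b (0.87). For Bach1 they were Vps54 (0.93), Il13ra1 (0.91), Marcks (0.90), for Nfe2l1 Creb3l2 (0.99), Cyb5a (0.98), Ppfibp1 (0.98) and for Nfe2l2 Pttg1 (0.93), Hist1h2bc (0.93), Marcksl1 (0.92). The profiles come from 2 libraries and share their free RNA, so the coefficients are descriptions. One limit of annotation touches Mafg, which overlaps Sirt7 by 124 bases on the same strand, and Sirt7 was at 40.9 and 40.3 CPM in control and knockout LSECs.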

How the data were processed

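Single-cell RNA of CD146-selected liver cells was sequenced from 2 pools of 3 mice, 1 library per genotype. The deposited files hold whole UMI counts per gene and barcode, made by the authors with Cell Ranger 6.0.2 on mm10, with at least 500 UMIs per barcode and without the authors' later subtraction of empty droplets. Barcodes needed 1500 UMIs and 750 genes, and those of each library were clustered in Seurat 5.3.0 on 2000 variable genes at resolution 0.3, with 16 (control) or 20 (knockout) principal components. The highest Scrublet scores (scanpy 1.11.5) were removed as doublets, 225 and 308 cells, since the automatic threshold called 0. Endothelial clusters had Pecam1 and at least 7 of 14 endothelial genes in 50% of cells, and other classes needed 3 markers among their 50 leading genes. Mixed clusters stayed unnamed. UMIs were summed per class. Ratios have exact conditional binomial, levels exact Poisson and shares Clopper-Pearson 95% intervals (scipy 1.17.1). Such intervals and the 3-UMI limit for a count of 0 cover counting error only. With 1 library per genotype no test between genotypes was made, and the ratio script was tested on simulated data. LSEC RNA in a class was estimated from Clec4g, Gpr182, Oit3, Ptprb, Kdr, Egfl7 and Tie1, and macrophage RNA from C1qa, C1qb, C1qc, Clec4f, Cd5l and Vsig4. Alternatives changed the scaling (all genes, TMM in edgeR 4.0.16, median of ratios), the cells, the clusters and the depth. Besides all members and the related genes Mafa, Nrl, Nfe2 and Nfe2l3, each list was represented by the 3 highest and 3 lowest ratios in LSECs at 20 CPM or more and the 2 most abundant genes. A few further genes are not reported here. Members and lists were chosen with earlier results of these data known. Gene positions are from GENCODE vM21 (mm10), and the annotation used for counting and the strand setting were not given in the sources used here.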

Additional observations from a re-analysis of the deposited data

Results flagged for a closer look

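Mafg had log2 ratios of knockout over control of opposite sign in macrophage-like cells, at 0.62, and in LSECs, at -1.24, with counting intervals clear of 0 in both. The difference between the classes was not tested, since there was 1 library per genotype. Beside it stands the part expected from LSEC RNA, 46.4% of the Mafg UMIs in control and 5.78% in knockout macrophage-like cells.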

How the results depend on the processing

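No paired analysis was possible because each genotype was 1 pooled library. In LSECs 3 members were past 2-fold under all 15 alternatives, as in the main setting, where 24.6% of 15390 genes with at least 10 UMIs were. The log2 ratio of Mafg ranged from -1.43 to -1.19 and that of Maff from 2.47 to 2.85. Nfe2l1 and Nfe2l2 were negative and Mafk and Bach2 positive under all 15, Bach2 down to 0.03 when cells were thinned to equal depth. Nfe2l1 came as near to 0 as -0.04 without cycling cells and was at -0.08 without clusters under 6000 median UMIs. Nfe2l2 came to -0.06 with Vwf cells kept. In macrophage-like cells 0 members were past 2-fold, beside 14.9% of 11477 genes with at least 10 UMIs. The count was 1 with the mean over cells of CPM (Bach2, at -1.74) and 2 with LSEC RNA subtracted (Maf at 1.58, Mafg at 1.43). The share of all genes under those settings is not given, so these counts cannot be set against genes in general. Maf there ran from -0.61 with doublets kept to 1.58, so its ratio in macrophage-like cells depends on how LSEC RNA is treated. The lists held 15 genes past 2-fold of 80 counted in LSECs, beside 13.8% of all 7586 genes at the limit. With no limit beyond 10 UMIs they held 23 of 96, beside 24.6% of 15390 genes. Scaling to UMIs of all genes turned the split of all genes past 2-fold from 697 higher and 347 lower to 426 and 469. With at least 5 in place of 2 Maf UMIs, 1 member (Mafg) rather than 0 differed by 2-fold from cells without Maf, as 21.8% rather than 10.6% of all genes with at least 10 UMIs did. The alternatives of keeping the mixed cluster of the knockout library and of leaving out shallow clusters were chosen after seeing the data. Small classes limit the depth: macrophage-like cells had 9 and 13 Maff UMIs.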
